A study of Oryctolagus cuniculus with 3 samples.

Results

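The genes described here act in glycolysis, gluconeogenesis and lactate transport. They are a list of 10 genes: 4 glycolytic enzymes that were measured (ALDOA, GAPDH, PGK1 and PKM), the lactate dehydrogenases LDHA and LDHB, the monocarboxylate transporter SLC16A1, the gluconeogenic enzyme FBP2, and ENO1 and TPI1. A gene counted as measured where a non-control probe in the deposited table of ratios carried its symbol, its RefSeq transcript or its gene number in the annotation of the array. That gave 8 of the 10 genes with 12 probes, out of 6430 named genes and 22839 non-control probes in the table. ENO1 and TPI1 had no probe by that rule.

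Glycolysis splits glucose into pyruvate in the cytosol, and lactate dehydrogenase interconverts pyruvate and lactate while it recycles the cofactor NADH. Monocarboxylate transporters carry lactate and pyruvate across the plasma membrane together with a proton. Fructose-1,6-bisphosphatases run a step of the pathway in reverse, towards glucose. Early mammalian embryos rely on pyruvate and lactate during cleavage and take up more glucose as the blastocyst forms.

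The study compared rabbit embryos that had been stored by slow freezing or by vitrification (cooling to a glass without ice) as morulae recovered at day 3. After thawing or warming the morulae went into recipient does, and the embryos were collected at day 6. Per the labels, vitrification used dimethyl sulphoxide and ethylene glycol at 12.5% each and then at 20% each, at 20 °C; those of the slow freezing are not stated in the labels, and neither is the number of embryos in an RNA extract. There were 3 arrays with 2 channels, called biological replicates 1, 2 and 3 in the labels, each carrying RNA of frozen embryos in one dye and of vitrified embryos in the other. No label names embryos without cold storage, so each value is a ratio between the 2 storage methods.

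Each value is the log2 of the frozen over the vitrified signal, so that 1 is a doubling in the frozen embryos and 0 is no difference. Frozen embryos were in Cy5 on replicates 1 and 3 and in Cy3 on replicate 2. The direction of the replicate 2 column is likely, not stated: it was read from 10 spike-in probes, whose Pearson correlation was 0.99 for replicates 1 and 3, -1.0 for replicates 1 and 2 and -1.0 for replicates 2 and 3. Over all probes the Pearson correlation was -0.36 between replicates 1 and 2, -0.01 between replicates 1 and 3 and 0.48 between replicates 2 and 3. In the deposited direction, replicate 1 thus stood apart from the other two. If the sign of replicate 2 is turned, the correlations are 0.36 between replicates 1 and 2 and -0.48 between replicates 2 and 3, and replicate 3 stands apart instead. Counts of arrays above or below 0 are for the deposited direction unless the turned sign is named, and the mean of each gene of the list is given both ways. The RNA came from whole embryos, in which fewer cells of a type and less RNA per cell cannot be told apart.

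In the deposited direction FBP2 and SLC16A1 were the genes of the list that lay above 0 on every array, and LDHB and GAPDH the genes that lay below 0 on every array. ALDOA, PGK1, PKM and LDHA had ratios of mixed sign. On replicate 2 PKM was at 0.001 and LDHA at 0.04. Both are nearer to 0 than the scanner software's error of 0.20 to 0.23 on replicates 1 and 3, so their sign there is not firm. The same holds for GAPDH on replicate 2 (-0.15) and replicate 3 (-0.01), and for ALDOA on replicate 3 (0.02). The place of GAPDH among the genes below 0 on every array is therefore not firm either. Being above 0 on all 3 arrays held for 2 of the 8 genes and for 11.7% of all probes. Being below 0 on all 3 held for 2 of the 8 and for 10.9% of all probes. With the sign of replicate 2 turned, 0 of the 8 genes lay above 0 on all 3 arrays, against 13.8% of probes, and 3 lay below 0 (PGK1, PKM and LDHA), against 13.2% of probes.

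**Figure D1:**
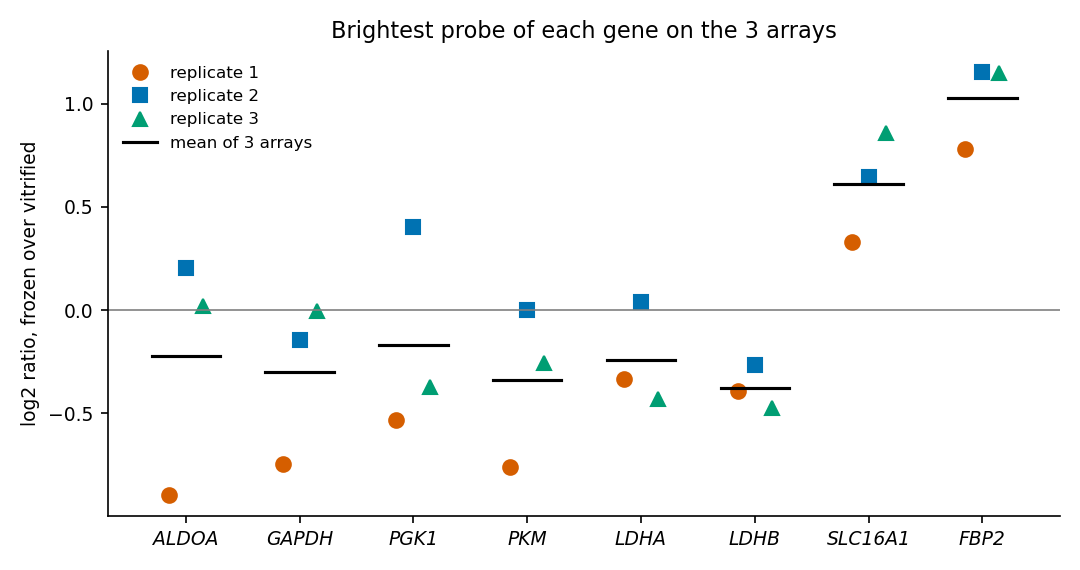
The log2 ratio of frozen over vitrified embryos (vertical axis) of the brightest probe of each of the 8 measured genes, with 1 point for each of the 3 arrays and a bar at their mean. FBP2 and SLC16A1 sit above 0 on every array, while ALDOA, GAPDH and PKM have their lowest value on replicate 1.

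No gene of the list passed the test across all probes, limma's moderated test of the mean ratio against 0 with Benjamini-Hochberg adjustment over 22839 probes. The share of all probes that passed at an adjusted p under 0.05 was 0.0%. At an unadjusted p under 0.05, 2 of the 8 genes were on the higher side (FBP2 and SLC16A1), against 1.84% of all probes, and 1 was on the lower side (LDHB), against 2.62% of all probes. All 3 of these depend on the deposited direction: with the sign of replicate 2 turned the unadjusted p was 0.59 for FBP2, 0.563 for SLC16A1 and 0.33 for LDHB by limma. In that direction 0 of the 8 genes were under 0.05 on the higher side, against 1.97% of probes, and 1 was on the lower side (PGK1, unadjusted p of 0.0153 and adjusted p of 0.84 by limma), against 2.68% of probes. The genes were chosen with earlier results of these data known, so these counts and those by sign above do not test the list against all probes. An exact sign-flip test over 3 arrays cannot give a two-sided p under 0.25. The labels call the arrays biological replicates but name no separate does or cultures, so the p-values measure the spread between these arrays.

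FBP2 encodes the muscle-type fructose-1,6-bisphosphatase, which removes a phosphate from fructose 1,6-bisphosphate in the gluconeogenic direction. Its single probe is shown because, in the deposited direction, it had the highest ratio of the list on each array. The probe lies at chr1:73562602-73562661 of the array annotation, in descending order; which genome build these coordinates follow is not stated in the files, for this probe and for those below. Its letters, 5′ to 3′, were as follows.
FBP2: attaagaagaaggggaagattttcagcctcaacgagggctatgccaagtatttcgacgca

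The FBP2 ratios were 0.78 on replicate 1, 1.15 on replicate 2 and 1.15 on replicate 3. In the deposited direction all 3 arrays were high and close to each other. The mean was 1.03 ± 0.22 (SD, n = 3 arrays), 2.04-fold higher in frozen embryos, with an adjusted p of 0.809 by limma; the unadjusted p of 0.00066 was the 12th smallest of all probes. On replicate 1 the log2 processed signal was 11.66 in the frozen channel and 10.88 in the vitrified channel. On replicate 3 it was 11.80 in the frozen channel and 10.65 in the vitrified channel. The probe thus read brighter in the frozen embryos on each scanned array, from a level above that of 80.1% of the probes. With the sign of replicate 2 turned, the FBP2 ratio on that array was -1.15 and the mean was 0.26 ± 1.24 (SD, n = 3 arrays). Without replicate 1 the mean was 1.15 with an adjusted p of 0.00566 by limma, past the threshold. That fit holds replicates 2 and 3 alone, so it depends on the deposited direction of replicate 2. Leaving out another replicate or using another setting gave adjusted p-values from 0.771 to 1.

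The liver-type fructose-1,6-bisphosphatase FBP1, which catalyses the same reaction, had ratios of -0.80, 0.41 and 0.60 on replicates 1, 2 and 3. Its sign thus differed between replicate 1 and the other arrays, and its mean was 0.07 ± 0.76 (SD, n = 3 arrays). The difference of FBP2 minus FBP1 within an array was 1.58, 0.74 and 0.55 in the same order. FBP2 had the higher ratio of the pair on each array, and the mean difference was 0.96 ± 0.55 (SD, n = 3 arrays), or 0.46 with the sign of replicate 2 turned, when the difference on that array is the opposite.

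SLC16A1 encodes the monocarboxylate transporter MCT1, which moves lactate, pyruvate and ketone bodies across the plasma membrane. Its single probe, shown as the other probe above 0 on every array, lies at chr13:51263864-51263923 in ascending order.
SLC16A1: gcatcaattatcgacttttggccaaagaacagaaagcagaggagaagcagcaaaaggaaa

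The SLC16A1 ratios were 0.33, 0.65 and 0.86 on replicates 1, 2 and 3. All lay above 0, with the smallest on replicate 1. The mean was 0.61 ± 0.27 (SD, n = 3 arrays), 1.53-fold higher in frozen embryos, with an adjusted p of 0.845 by limma and an unadjusted p of 0.00967. SLC16A1 had the dimmest probe of the list. Its log2 signal was 9.59 in the frozen and 9.26 in the vitrified channel on replicate 1, and 9.99 and 9.13 on replicate 3. The SLC16A1 mean was 0.18 ± 0.76 (SD, n = 3 arrays) with the sign of replicate 2 turned. Without replicate 1 the mean was 0.75 with an adjusted p of 0.0284 by limma, past the threshold, while the other settings gave 0.821 to 1. As for FBP2, that pass depends on the deposited direction of replicate 2. Without replicate 1, 1.06% of all probes passed on the higher side.

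BSG encodes basigin, the chaperone that brings this transporter to the membrane. BSG had ratios of -0.67, 0.26 and -0.24, with a mean of -0.22 ± 0.47 (SD, n = 3 arrays). SLC16A1 minus BSG was 1.01, 0.38 and 1.10, so the transporter had the higher ratio on each array, by 0.83 ± 0.39 (SD, n = 3 arrays) or by 0.58 with the sign of replicate 2 turned, when replicate 2 goes the other way. The related transporter SLC16A7 (MCT2), named here after its values were seen, spread from -1.69 on replicate 1 to 1.02 on replicate 2, with 0.61 on replicate 3.

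**Figure D2:**
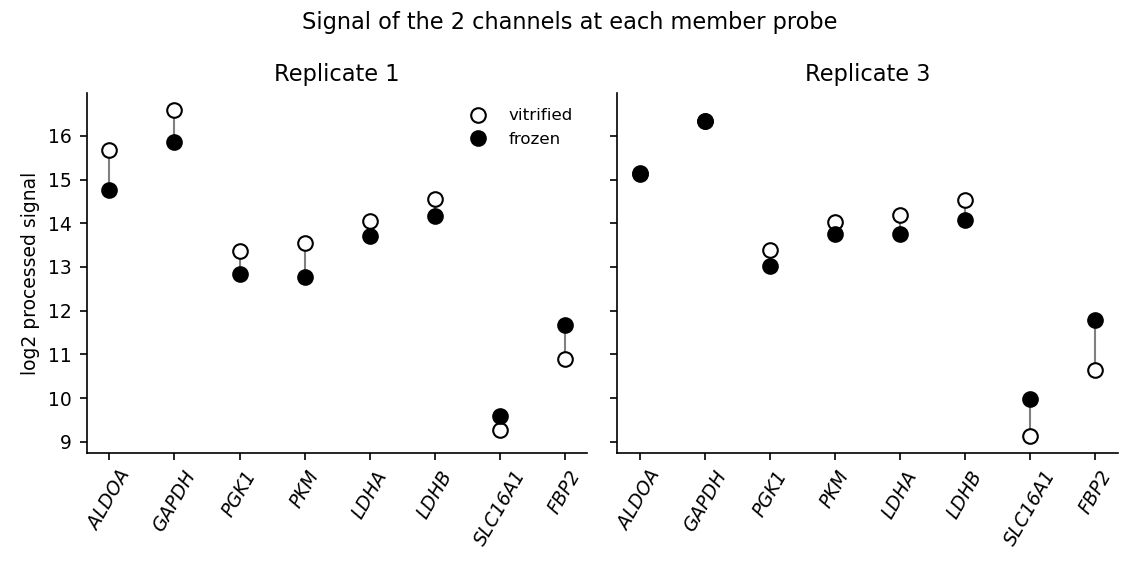
Log2 processed signal (vertical axis) of the frozen channel (filled) and the vitrified channel (open) at the brightest probe of each gene, on the 2 arrays whose scanner files were used. SLC16A1 is the dimmest and GAPDH the brightest; the frozen channel lies above the vitrified channel for SLC16A1 and FBP2 on both arrays. Levels of different probes are not comparable as RNA amounts.

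Ratios of the 6 measured enzymes between fructose 1,6-bisphosphate and lactate (ALDOA, GAPDH, PGK1, PKM, LDHA and LDHB) were below 0 for 6 of 6 genes on replicate 1, 2 of 6 on replicate 2 (4 of 6 with its sign turned) and 5 of 6 on replicate 3. In the deposited direction 51.4%, 47.0% and 47.2% of all probes were below 0 on replicates 1, 2 and 3. The medians of the 6 enzymes were -0.64, 0.02 and -0.31 on the 3 arrays, beside medians of -0.015, 0.021 and 0.017 over all probes. All 6 means over the arrays lay below 0, from -0.38 to -0.17, and none passed the adjusted test. The median of the mean over all probes was 0.0035. With the sign of replicate 2 turned the 6 means ranged from -0.44 to -0.20. The 6 probes were among the bright ones of the array, each above at least 91.9% of the probes in signal. Among the brightest of all probes, those with a log2 signal of at least 12.67, the medians were -0.034, 0.015 and -0.023.

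**Figure D3:**
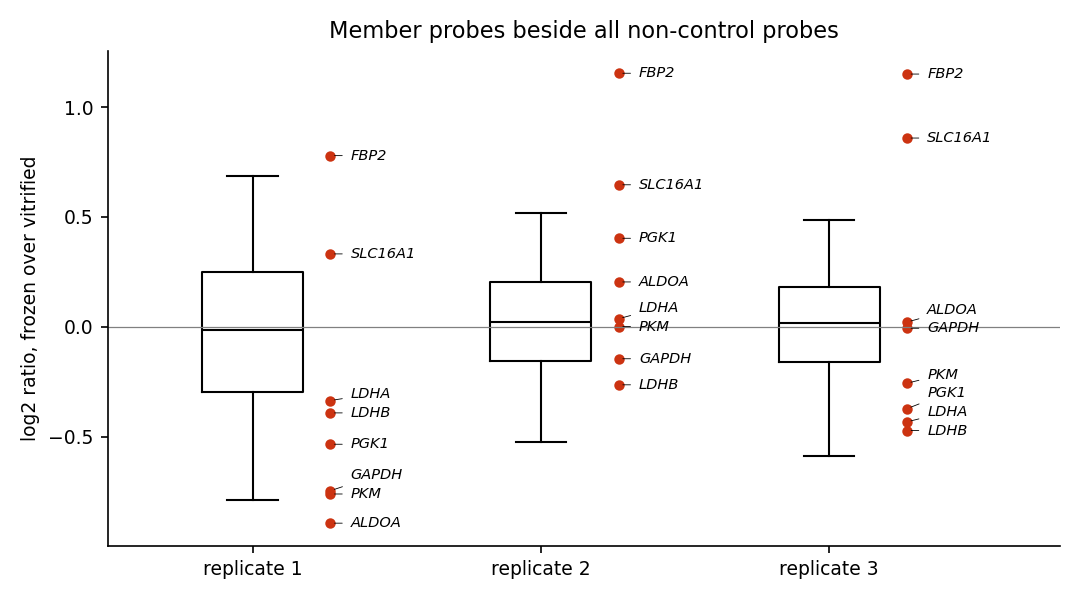
Log2 ratio of frozen over vitrified (vertical axis) on each array. Boxes give the median and quartiles of all 22839 non-control probes with whiskers at the 5th and 95th percentiles, and points give the 8 genes. The 6 enzymes lie under the lower quartile on replicate 1 and spread across the box or beyond it on replicate 2.

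ALDOA encodes aldolase A, which cleaves fructose 1,6-bisphosphate into triose phosphates. Its ratios were -0.89, 0.20 and 0.02 on replicates 1, 2 and 3. The low value came from replicate 1, where it stood at the 3.30th percentile of all probes, and the mean was -0.22 ± 0.59 (SD, n = 3 arrays), which is within the spread. Without replicate 1 the ALDOA mean was 0.11, and with the sign of replicate 2 turned it was -0.36.

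GAPDH, the triose phosphate dehydrogenase often used as a reference gene, had ratios of -0.75, -0.15 and -0.01. Again replicate 1 was the lowest, at the 5.87th percentile, while replicates 2 and 3 lay nearer to 0 than the scanner software's error of 0.20. The mean was -0.30 ± 0.39 (SD, n = 3 arrays). It was -0.076 without replicate 1 and -0.20 with the sign of replicate 2 turned. GAPDH had the brightest probe of the list, with a mean log2 signal of 16.28. A normalization that follows signal within the array (loess) put its mean on replicates 1 and 3 at -0.05. The processed signals of the same arrays gave -0.38. GAPDH was alone in this among the enzymes. The loess means were -0.37 for ALDOA, -0.57 for PGK1, -0.60 for PKM, -0.43 for LDHA and -0.49 for LDHB. Processed signals gave these genes -0.44, -0.45, -0.51, -0.38 and -0.43 in that order.

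PGK1 encodes phosphoglycerate kinase, which makes the first ATP of the pathway. Its ratios were -0.53, 0.40 and -0.37, so that replicate 2 stood against replicates 1 and 3, and the mean was -0.17 ± 0.50 (SD, n = 3 arrays). With the sign of replicate 2 turned all 3 values were negative, with a mean of -0.44, and without replicate 1 the mean was 0.02.

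PKM encodes pyruvate kinase, the last step to pyruvate. Its ratios were -0.76, 0.00 and -0.26, with replicate 2 at 0 and the others below it. The mean was -0.34 ± 0.39 (SD, n = 3 arrays) with an unadjusted p of 0.123 and an adjusted p of 1.00 by limma. Turning the sign of replicate 2 left the mean at -0.34, since that value was near 0, while leaving out replicate 1 gave -0.13.

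LDHA encodes the lactate dehydrogenase subunit that is abundant in skeletal muscle and LDHB the subunit that is abundant in heart; the enzyme is a tetramer of either or both. LDHB had ratios of -0.39, -0.26 and -0.47. In the deposited direction these were the most even values among the 6 enzymes: the mean was -0.38 ± 0.10 (SD, n = 3 arrays), 1.30-fold lower in frozen embryos, with an unadjusted p of 0.0322 and an adjusted p of 1.00 by limma. With the sign of replicate 2 turned the LDHB mean was -0.20 ± 0.40, and PGK1 became the most even at -0.44 ± 0.09 (SD, n = 3 arrays).

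LDHA had 5 probes, and the brightest gave -0.34, 0.04 and -0.43, with a mean of -0.24 ± 0.25 (SD, n = 3 arrays). Turning the sign of replicate 2 gave an LDHA mean of -0.27, and leaving out replicate 3 gave -0.15. The 5 probes start between bases 908 and 930 of the transcript and share 38 bases, so they are repeated readings of a single stretch and not independent evidence. They ranged from -0.38 to -0.32 on replicate 1, from 0.04 to 0.16 on replicate 2 and from -0.45 to -0.32 on replicate 3. The arrays thus differed more than the probes did. The first and the last of the 5 are shown with the shared bases in capitals, at chr14:46854636-46854695 and chr14:46854618-46854673, both in descending order; the latter span is shorter than the 60 bases of the probe.
LDHA, first probe: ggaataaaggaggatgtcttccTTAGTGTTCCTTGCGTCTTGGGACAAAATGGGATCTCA
LDHA, last probe: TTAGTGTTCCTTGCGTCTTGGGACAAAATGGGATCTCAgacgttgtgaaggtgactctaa

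Within an array, LDHB minus LDHA was -0.06, -0.30 and -0.04. The subunits were close on replicates 1 and 3, and the mean difference of -0.13 ± 0.15 (SD, n = 3 arrays) was within the spread; it was 0.07 with the sign of replicate 2 turned.

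TPI1, triose phosphate isomerase, was named for 5 probes only through the accession lists of the array annotation, which the rule does not use, and these were left out of every count. They ranged from -0.29 to -0.18 on replicate 1, from -0.02 to 0.04 on replicate 2 and from -0.06 to 0.08 on replicate 3. Their means lay between -0.11 and -0.04.

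Of 90 other genes listed for the surrounding pathways, 46 were measured. None passed the adjusted test, 20 had a mean above 0 and 26 below 0, and the median mean was -0.02, beside 0.00 over all probes. At an unadjusted p under 0.05 by limma there were 2 of the 46, HKDC1 and SLC16A10, both on the lower side. Of all probes, 2.62% were under 0.05 on the lower side and 1.84% on the higher side. Without replicate 1, 5 of the 46 passed the adjusted test, against 3.49% of all probes. SLC2A4 (mean 1.02), SLC16A7 (0.82) and SLC16A6 (0.68) lay above 0, and PFKP (-0.99) and HIF1A (-0.70) below 0. Each had the opposite sign on replicate 1. This fit holds replicates 2 and 3 alone and depends on the deposited direction of replicate 2. If that sign is turned, replicates 2 and 3 have opposite signs for each of these genes. SLC16A6, another transporter of the SLC16 family, is also named after its values were seen. The medians over all 46 genes were -0.34, 0.16 and 0.04 on replicates 1, 2 and 3. A ratio below 0 on replicate 1 together with one above 0 on replicate 2 was found for 24 of these 46 genes. It was found for 4 of the 8 genes of the list (ALDOA, PGK1, PKM and LDHA) and for 34.9% of all probes. PKM and LDHA lay near 0 on replicate 2.

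**Figure D4:**
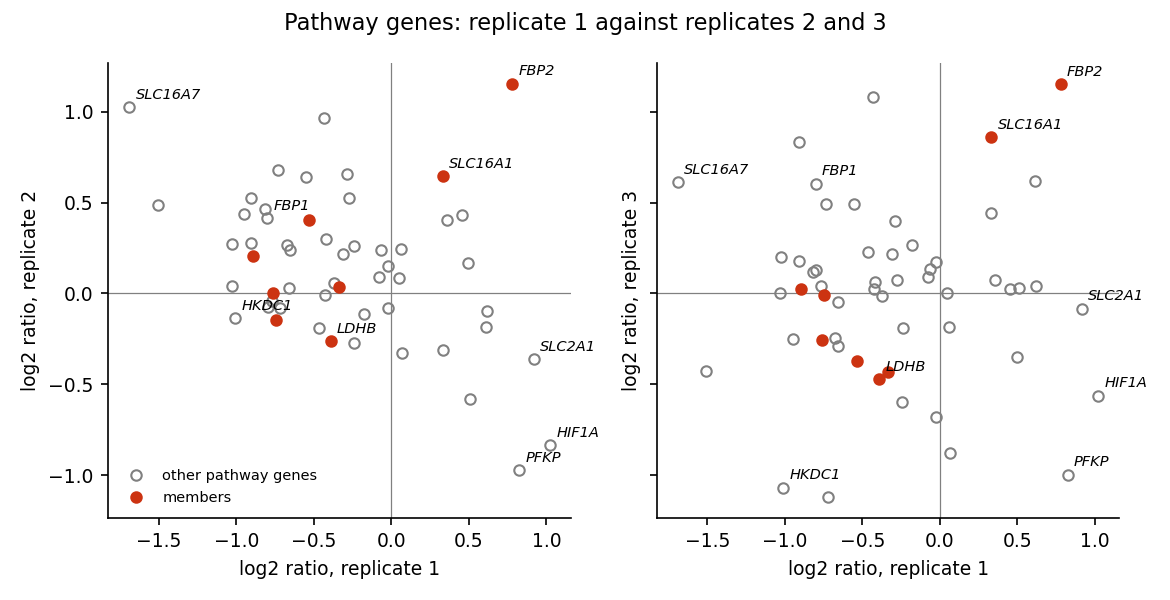
Log2 ratio of frozen over vitrified on replicate 1 (horizontal axis) against replicate 2 (left) and replicate 3 (right) for the 8 genes of the list (filled) and the 46 other pathway genes (open). Labels mark a chosen set of genes, and some genes far from the centre are not labelled. FBP2 and SLC16A1 lie in the upper right of both panels, while FBP1, HIF1A, PFKP and SLC16A7 change sign between replicate 1 and the others.

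Among glucose transporters, 4 of 9 were measured. SLC2A1 (GLUT1), the widely expressed one, had ratios of 0.92, -0.36 and -0.08, and the insulin-responsive SLC2A4 (GLUT4) had -0.43, 0.97 and 1.08. The pair ran in opposite directions on each array, with means of 0.16 ± 0.67 and 0.54 ± 0.84 (SD, n = 3 arrays). SLC2A8 (GLUT8), a largely intracellular transporter, had -1.03, 0.04 and 0.00.

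In upper glycolysis 9 of 12 genes were measured, and 7 had a mean below 0. HKDC1, a hexokinase family member, was below 0 on every array at -1.01, -0.14 and -1.07. HKDC1 had the smallest unadjusted p of its group, 0.0187, with an adjusted p of 0.924 by limma. With the sign of replicate 2 turned it lay above 0 on 1 array and its mean went from -0.74 to -0.65, and normexp with loess on replicates 1 and 3 gave -0.42. Hexokinase 2 (HK2) had ratios of -0.27, 0.53 and 0.07. Glucose-6-phosphate isomerase (GPI) had -0.82, 0.47 and 0.12, and the platelet-type phosphofructokinase PFKP had 0.83, -0.97 and -0.998. In the deposited direction GPI was low on replicate 1 and PFKP high there, in contrast with their values on the other arrays.

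In lower glycolysis 6 of 8 genes were measured, and 5 had a mean below 0. Phosphoglycerate mutase PGAM1 had ratios of -0.95, 0.44 and -0.25. The enolases ENO2 (neuronal type) and ENO3 (muscle type) had -0.77, -0.04 and 0.04, and -1.50, 0.49 and -0.43. All 3 had their lowest value on replicate 1, as ALDOA, GAPDH, PGK1 and PKM did. Without replicate 1 the means were 0.093 for PGAM1, -0.00059 for ENO2 and 0.029 for ENO3. The ENO3 probe was dim, with a log2 signal of 5.51 beside a median of 8.63 over all probes. Normexp with loess on replicates 1 and 3 moved the ENO3 mean from -0.97 to -0.14. Probes of HKDC1 (6.64), PFKFB4 (5.64), GPD1L (5.55), SLC16A10 (5.49) and G6PC2 (5.47) were also below that median.

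In gluconeogenesis 4 of 8 genes were measured and 3 had a mean above 0. The mitochondrial phosphoenolpyruvate carboxykinase PCK2 had ratios of -0.55, 0.64 and 0.49, a sign pattern shared with FBP1 and not with FBP2. G6PC2, a glucose-6-phosphatase of pancreatic islets, had 0.61, -0.18 and 0.62. PFKFB4, which makes and removes the regulator fructose 2,6-bisphosphate, was the measured gene of 5 in its group, with 0.45, 0.43 and 0.02.

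The lactate and monocarboxylate group, which holds BSG, had 4 of 13 genes measured. SLC16A10, an aromatic amino acid transporter of the SLC16 family, was below 0 on every array at -0.72, -0.08 and -1.12. It had the smallest unadjusted p of its group, 0.0319, with an adjusted p of 1.00 by limma. Its mean of -0.64 went to -0.40 without replicate 3 and to -0.24 after normexp and loess of replicates 1 and 3, and turning the sign of replicate 2 put it above 0 on 1 array, with a mean of -0.59. For the entry of pyruvate into mitochondria 6 of 13 genes were measured, 3 on either side of 0. The pyruvate dehydrogenase subunit PDHA1 had -0.29, 0.66 and 0.40. Its inhibitory kinases PDK1 and PDK3 had -0.07, 0.24 and 0.13, and 0.07, -0.33 and -0.88. None of these was of 1 sign on all arrays.

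In the pentose phosphate pathway 4 of 8 genes were measured, 3 with a mean below 0. Ribose-5-phosphate isomerase RPIA had ratios of -0.02, -0.08 and -0.68. Its mean of -0.26 rested on replicate 3 and was -0.053 without it. In the shuttles that carry reducing equivalents into mitochondria 4 of 7 were measured: GPD1L had -0.80, -0.08 and 0.13 and the aminotransferase GOT1 had -0.91, 0.28 and 0.18. Among 4 of 7 regulators measured, the hypoxia factor HIF1A had 1.02, -0.84 and -0.56, MYC had 0.62, -0.10 and 0.04, and the coactivator PPARGC1A had 0.36, 0.41 and 0.07. In the deposited direction PPARGC1A was the regulator above 0 on every array, and with the sign of replicate 2 turned MYC was.

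The arrays also differed in markers of cell types. Of 15 hypoblast markers (the inner lining of the blastocyst), 9 were measured, with medians of -0.11, -0.81 and -1.06 on replicates 1, 2 and 3 and ranges of -0.59 to 0.66, -1.98 to 0.14 and -2.20 to 0.33. FBP2 and SLC16A1 had their larger ratios on the arrays on which these markers were lower in frozen embryos, in the deposited direction. This order of arrays was not particular to hypoblast markers. On replicates 2 and 3 the trophoblast median was also higher, and the blood marker HBA lower, than on replicate 1. The part of the markers in those ratios was not tested. Of 9 trophoblast markers 5 were measured, with medians of -0.31, 0.26 and 0.36. Of 8 epiblast markers 2 were measured: POU5F1 had -0.75, -0.52 and -1.62, and ETV4 had -1.04, -0.06 and -0.63. For skeletal muscle, where FBP2 and ALDOA are abundant, 3 of 8 markers were measured: CKM had -0.99, 0.16 and 0.06, MYH7 had -0.22, -0.36 and -0.95, and DES had 0.18, 0.04 and 0.17. CKM and DES had dim probes, with log2 signals of 4.99 and 6.38 beside a median of 8.63 over all probes. MYH7 had 10.35. In the deposited direction none of the 3 reached the FBP2 ratio on any array. With the sign of replicate 2 turned, all 3 were above the FBP2 ratio of -1.15 on that array. The part of muscle in the FBP2 ratio was not tested. Of 9 blood markers 2 were measured: HBA had 1.88, -2.23 and -1.79, and S100A9 had 0.54, -0.15 and 0.25. Their medians were 1.21, -1.19 and -0.77, with HBA further from 0 on each array. Of 6 uterine markers 2 were measured: SCGB1A1 had -0.67, -0.62 and 0.13, and HOXA11 had -0.30, -0.01 and -0.9998. Their medians were -0.48, -0.31 and -0.44. Both the blood pair and the uterine pair had opposite signs on replicate 3. The part of blood and uterine markers in the ratios above was not tested either.

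The scanner software's own error of the log2 ratio within an array ran from 0.20 to 0.23 for the 12 probes. In the deposited direction the spread between arrays was larger than that for 6 of the 8 genes when taken as the SD, the exceptions being LDHB and FBP2. With the sign of replicate 2 turned, the SD was 1.24 for FBP2 and 0.40 for LDHB. PGK1, at 0.09, was then below the scanner error and LDHA, at 0.21, within its range. Over all probes the median SD between arrays was 0.26.

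**Figure D5:**
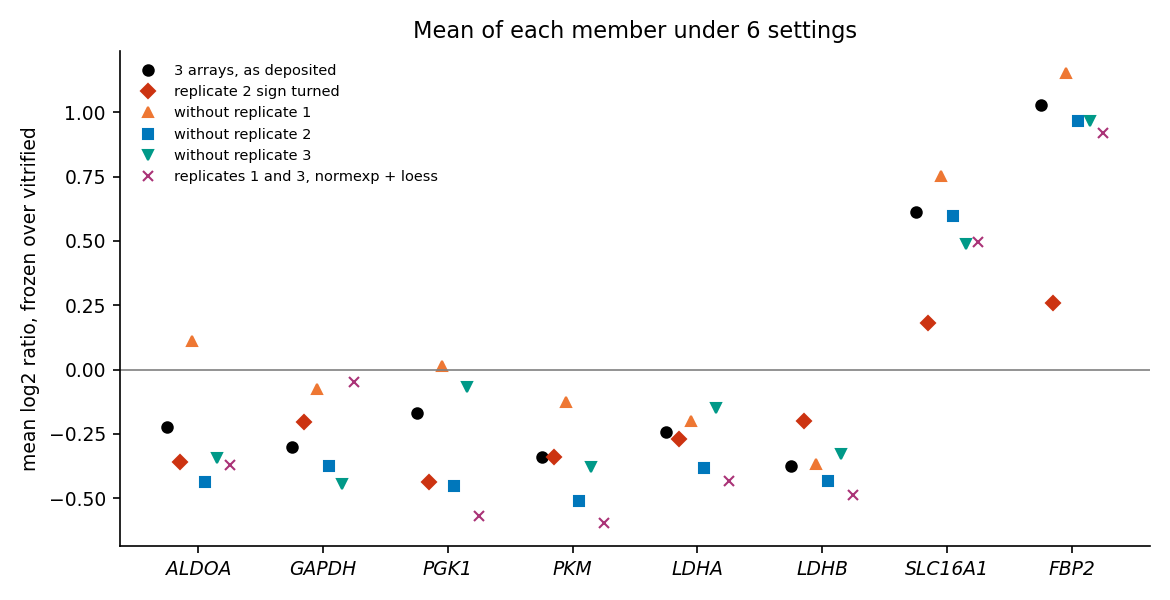
Mean log2 ratio of frozen over vitrified (vertical axis) of the 8 genes in the deposited table, with the sign of replicate 2 turned, without each replicate, and from the scanner files of replicates 1 and 3 after another normalization. FBP2 and SLC16A1 stay above 0 in all 6 settings and are lowest with the sign turned, at 0.26 and 0.18; ALDOA and PGK1 move above 0 without replicate 1.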

How the data were processed

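Total RNA (100 ng, per the labels' protocols) of frozen and vitrified day 6 embryos was hybridised to 3 Agilent arrays with 2 channels. Per the submitters' processing notes the authors used Agilent Feature Extraction 10.10.1.1. The authors deposited scanner files for replicates 1 and 3 (replicate 2's was not used here), with spot intensities and, per the file headers, a log10 ratio and its error, and a value table of log2 ratios of all 3 arrays (22839 non-control probes, each well above background on replicates 1 and 3 and none saturated). For probes with 1 spot the table equalled processed red over green, to within 3e-06 and 2e-06; the 21 probes with several spots differed by up to 0.015 with signals averaged (other ways of combining spots did not match either), and none is a gene described here. Its centring was left as deposited.

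Each probe's ratio was tested against 0 with limma 3.58.1 in R 4.3.3, with Benjamini-Hochberg adjustment over all probes; the script was tested on simulated data. A gene is represented by its brightest probe. Signal was the mean log2 processed signal of replicates 1 and 3. Symbols were updated through the RefSeq gene table of the rabbit assembly mOryCun1.1; probes with a symbol numbered 13215. Named genes were the list, 12 fixed pathway genes where measured, and in each pathway group the 2 genes with the smallest p; others named with values are markers or are said to be chosen later. Some genes that meet this rule are not reported here. The number of arrays limits the precision. Alternatives were the sign of replicate 2, each replicate left out, dye as a covariate, an intensity trend, centring, scaling, a signal floor of 7 (log2), all probes of a gene, and the scanner files as processed or after normexp (offset 50) and loess. The genes and lists were chosen with earlier results of these data known.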

Additional observations from a re-analysis of the deposited data

How the results depend on the processing

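When the sign of replicate 2 was turned, no mean of the list changed side, though the SD rose to 1.24 for FBP2 and 0.76 for SLC16A1. The means of the pathway genes FBP1 (-0.20), HIF1A (0.43), HK2 (-0.24), PCK2 (-0.23), PDHA1 (-0.18), PDK1 (-0.058), PFKP (0.27) and SLC2A4 (-0.11) did change side. The cause was not tested for these or for the other reversals. From the processed signals of replicates 1 and 3, the reversed means were FBP1 -0.10, HIF1A 0.23, HK2 -0.10 and PCK2 -0.030. After normexp and loess of the same arrays they were FBP1 -0.024, GPD1L 0.0099, HK2 -0.0040, PCK2 -0.040 and PFKFB4 -0.018. GPI turned to 0.058 with dye as a covariate and to 0.020 with scaled columns. Leaving out each replicate in turn, the count of probes with an adjusted p under 0.05 ran from 0 to 796 (796 without replicate 1). With an unadjusted p under 0.05 it ran from 351 (without replicate 3) to 3720 (without replicate 1), against 1020 with all arrays. These counts and the ranges that follow are for the deposited direction of replicate 2. The leave-one-out ranges were 0.96 to 1.15 for FBP2, -0.44 to 0.11 for ALDOA, -0.45 to -0.076 for GAPDH, -0.45 to 0.015 for PGK1, -0.51 to -0.13 for PKM, -0.38 to -0.15 for LDHA, -0.43 to -0.33 for LDHB, 0.49 to 0.75 for SLC16A1, -0.46 to 0.011 for BSG, -0.41 to -0.00059 for ENO2, -0.97 to 0.029 for ENO3, -0.19 to 0.51 for FBP1, -0.36 to 0.23 for GOT1, -0.44 to 0.025 for GPD1L, -0.35 to 0.29 for GPI, -0.70 to 0.23 for HIF1A, -0.10 to 0.30 for HK2, -0.029 to 0.33 for MYC, -0.030 to 0.56 for PCK2, -0.99 to -0.074 for PFKP, -0.60 to 0.093 for PGAM1, -0.22 to 0.42 for SLC2A1, 0.27 to 1.02 for SLC2A4 and -0.51 to 0.023 for SLC2A8. The ratio within an array already pairs the storage methods, so no further block was fitted. The 12 probes of the list are in the value table, so that probes outside it gave no further value.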
